A study of Mus musculus with 4 samples.

Results

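The genes described here are 7 that mark the inhibitory neuron lineage of the embryonic forebrain: the homeobox genes Dlx1, Dlx2, Dlx5 and Dlx6, the glutamate decarboxylase genes Gad1 and Gad2, and Slc32a1. They were chosen by name, as the genes whose symbol equals one of these in both deposited tables, and all 7 were found among the 19150 genes that the tables share. The study sequenced brain RNA of C57BL/6 mouse embryos of stage E13.5 and compared a knockout (KO) genotype with wild type (WT), with 2 libraries of each, KO2 and KO4 against WT6 and WT8. The title of the series names a deletion of macroH2A, a histone H2A variant with a large extra domain, and the labels do not say which of its genes was deleted or whether a library holds 1 embryo or several. No other allele or treatment is given for either genotype. Whether the libraries of a genotype came from separate litters is not given, so a p-value measures only how these samples spread, and that spread may be technical.

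Dlx genes encode transcription factors with a homeodomain, and they lie in the genome as pairs that point towards each other and share enhancers. In the ventral telencephalon, the subpallium, progenitors of the ganglionic eminences switch on Dlx2 and Dlx1 and, as they leave the cell cycle, Dlx5 and Dlx6, and the DLX proteins are known to activate the Gad genes. GAD67 (from Gad1) and GAD65 (from Gad2) make GABA, the inhibitory transmitter, from glutamate, and the product of Slc32a1, the vesicular transporter VGAT, loads it into synaptic vesicles, so that this last gene acts after synthesis.

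The read totals were between 16470090 and 18136745 per library, and all 7 genes passed the filter on low counts together with 15701 others. Levels are given as CPM, a count scaled to the size of its library, with edgeR's TMM factors of 0.971 to 1.01 applied. The macroH2A gene H2afy stood at 74.6 and 69.2 CPM in the KO libraries and at 322 and 350 in WT, which in edgeR is a log2 fold of -2.22 (SE 0.10, adjusted p = 0.00167), and it was the only gene called. Without WT6 the fold was -2.29 and edgeR's adjusted p was 0.314. H2afy2 stood at 190 and 206 CPM in KO and at 192 and 182 in WT. Xist, looked up outside the naming rule, the RNA that coats the inactive X chromosome of females, had 6 reads in KO2 and 19 in WT6 but 8105 in KO4 and 6094 in WT8, so each genotype holds a library rich in it and a library nearly without it. Defining genes of neurons and of neural progenitors were abundant in every library, with Tubb3 at 2789 to 3442 CPM and Vim at 718 to 819 CPM.

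Dlx1 and Dlx2, the pair expressed first in this lineage, were lower in 1 of the WT libraries than in the other 3 libraries. Dlx1 (ENSMUSG00000041911, chromosome 2, 71528113 to 71533981 on GRCm38, plus strand) stood at 270 CPM in WT6, 424 in WT8, 407.5 in KO2 and 381 in KO4, from 4637 to 7468 reads. WT6 was thus at 66.7% of the mean of the other 3 libraries, which differed among themselves by at most 1.11-fold. Dlx2 (ENSMUSG00000023391, 71543408 to 71546754, minus strand) lies 9.43 kb beyond Dlx1 and points towards it. It stood at 123.0 CPM in WT6, 212 in WT8, 194 in KO2 and 185 in KO4. WT6 was again the lowest, at 62.5% of the other 3, and both KO libraries lay between the WT libraries. Counting error was small beside this gap, since the exact Poisson interval of Dlx2 in WT6 reached from 118 to 128 CPM and that in KO4, the next lowest, from 179 to 191 CPM. Such intervals cover counting error only.

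The Dlx5 and Dlx6 pair, which follows in postmitotic precursors, had the same order of libraries with a wider gap. Dlx5 (ENSMUSG00000029755, chromosome 6, 6877805 to 6882085, minus strand) stood at 50.5 CPM in WT6, 91.6 in WT8, 86.8 in KO2 and 80.7 in KO4. Dlx6 (ENSMUSG00000029754, 6863334 to 6868568, plus strand), 9.24 kb away, stood at 10.5 CPM in WT6, 21.9 in WT8, 20.6 in KO2 and 19.2 in KO4, from 180 to 377 reads. WT6 stood at 58.4% of the mean of the other libraries for Dlx5 and at 50.9% for Dlx6, and the other 3 stayed within 1.14-fold of each other for either gene.

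Noncoding genes on the opposite strand accompany these pairs, while the other listed family members, Dlx3 and Dlx4, were not analysed here. Dlx6os1, whose transcript Evf2 comes from the enhancer region between Dlx5 and Dlx6, stood at 36.6 CPM in WT6, 67.7 in WT8, 73.4 in KO2 and 65.6 in KO4, and its exons share no base with those of Dlx6 in the GENCODE M21 annotation. It had more reads than Dlx6 in every library (630 to 1346). Dlx1as shares 335 bases, or 6.21%, of the exons of Dlx1 and had only 66 to 96 reads per library. Dlx6os2 shares 104 exon bases with Dlx6 and had 10 to 18 reads, and Gad1os, which lies across the start of Gad1 without sharing exon bases, had 1 to 11. Gm14205, antisense to Slc32a1 over 697 bases of its exons, is not in both tables and was not used. No source used here gives the use of strand in counting, so reads cannot be assigned between these partners. The counts of Dlx1as, Dlx6os2 and Gad1os are small beside those of Dlx1, Dlx6 and Gad1.

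Both GABA synthesis genes had the same lowest and highest library as the Dlx genes. Gad1 (ENSMUSG00000070880, chromosome 2, 70553072 to 70602014, plus strand) stood at 59.9 CPM in WT6, 97.2 in WT8, 84.3 in KO2 and 83.8 in KO4. Gad2 (ENSMUSG00000026787, chromosome 2, 22622205 to 22693874, plus strand) stood at 60.6 CPM in WT6, 112 in WT8, 107 in KO2 and 111 in KO4. For Gad2 the KO libraries and WT8 were nearly equal, within 1.05-fold, and WT6 alone stood apart at 55.2% of their mean. Slc32a1 (ENSMUSG00000037771, chromosome 2, 158610767 to 158615748, plus strand) stood at 35.3 CPM in WT6, 59.9 in WT8, 51.0 in KO2 and 47.1 in KO4. It varied most among the other 3 libraries, by 1.27-fold, with WT6 at 67.0% of their mean.

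**Figure D1:**
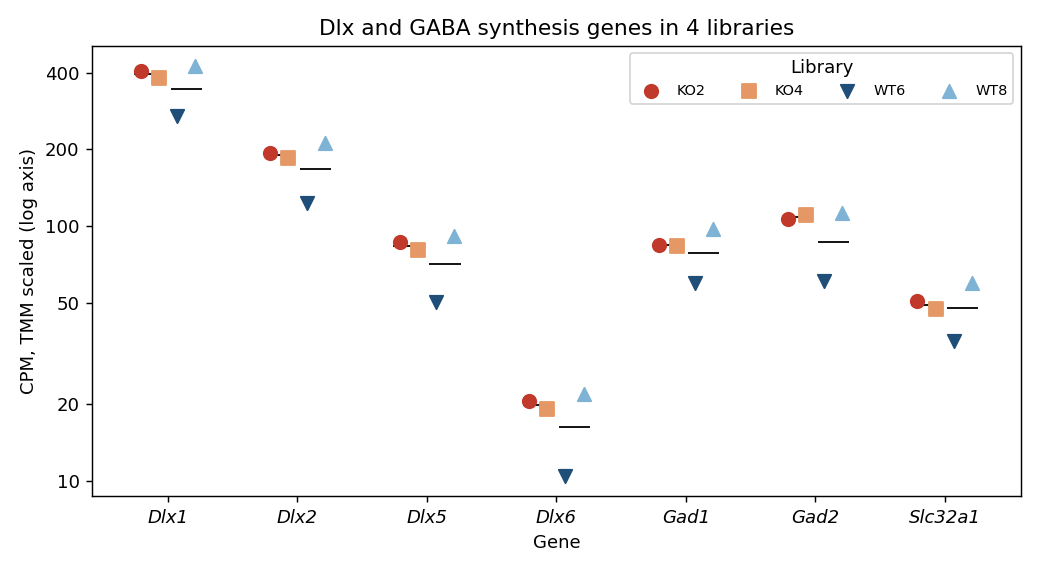
CPM (log axis, scaled by TMM factors) of the 7 genes in each of the 4 libraries. Red and orange symbols are KO libraries, blue symbols are WT libraries, and black lines are the mean of each genotype. WT6 is the lowest and WT8 the highest library for all 7 genes, with both KO libraries between them.

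The 2 WT libraries thus held the ends of the range for every gene. WT6 was the lowest library for 7 of 7 genes, where 20.7% of all genes tested had it lowest, and WT8 was the highest for 7 of 7, against 32.8% of all genes. Both held together for all 7, against 8.65% of all genes. The distance of WT6 below the mean of the other 3 libraries ran from 0.56 (Gad1) to 0.97 (Dlx6) on the log2 CPM scale, with a median of 0.68. A distance of at least 0.5, a limit chosen after these values were seen, was found for 1.83% of the 11377 genes tested with a mean of at least 5 CPM. Summed over the 7 genes, the level was 609 CPM in WT6, 1018 in WT8, 951 in KO2 and 908 in KO4. In brain RNA, fewer cells of a type and less RNA per cell cannot be told apart.

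For members with the same lowest and highest library, the sequence before the RefSeq start was read from RefSeq windows on GRCm38.p6, which were found for 5 of them (Dlx1, Dlx2, Gad1, Gad2 and Slc32a1). The RefSeq start is that of the gene given above for Dlx2, 9 bases before it for Slc32a1 and 122 bases inside the gene for Gad2. It lies further inside for Dlx1, by 1332 bases, and for Gad1, by 9057 bases, so the Gad1 stretch falls within the longest annotated extent of that gene. Shown 5′ to 3′ are the stretches of at least 100 bases that meet no annotated exon, with CG dinucleotides, which are counted below, in capitals. They lie at chr2:71546755-71547004 (minus strand) for Dlx2, chr2:70561879-70562041 (plus) for Gad1 and chr2:22622077-22622204 (plus) for Gad2.
Dlx2: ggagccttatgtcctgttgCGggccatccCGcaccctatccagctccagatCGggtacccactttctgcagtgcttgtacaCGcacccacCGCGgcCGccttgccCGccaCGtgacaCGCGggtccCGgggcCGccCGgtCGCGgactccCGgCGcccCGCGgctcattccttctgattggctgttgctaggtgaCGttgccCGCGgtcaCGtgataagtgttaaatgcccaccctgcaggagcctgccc
Gad1: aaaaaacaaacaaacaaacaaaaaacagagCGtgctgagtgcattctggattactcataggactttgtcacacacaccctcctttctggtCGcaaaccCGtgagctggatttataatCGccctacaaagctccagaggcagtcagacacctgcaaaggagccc
Gad2: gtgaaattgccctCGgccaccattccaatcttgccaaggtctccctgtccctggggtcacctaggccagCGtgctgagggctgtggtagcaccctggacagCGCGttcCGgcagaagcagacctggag
Over the full 250 bases before the RefSeq start, Dlx2 had 24 CG dinucleotides, Dlx1 22, Gad1 17, Gad2 13 and Slc32a1 12, against a median of 6 over 32851 windows of the same length. Dlx2 had more of them than 88.0% of those windows did, and Slc32a1, the lowest of the 5, more than 66.5% did. Within the stretches shown, the count was 24 for Dlx2, 4 for Gad1 and 5 for Gad2. The homeodomain core TAATTA, which DLX proteins bind, was in none of the 5 windows and in 4.84% of all windows, read on both strands. This motif was chosen with the levels known, and its absence says only that the letters are not in these windows.

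Between the genotypes, none of the 7 genes differed beyond the spread of the libraries. With edgeR's quasi-likelihood test adjusted over all 15708 genes, 0 of 7 passed, where 0.00637% of all genes did, and 0 of 7 had an unadjusted p under 0.05, against 4.7% of all genes. DESeq2 and limma-voom also called 0 of 7, against 0.0209% and 0.00637% of all genes. The log2 fold change of KO over WT lay above 0 for all 7, with a median of 0.19 beside -0.01 for all genes tested, of which 48.9% lay above 0. The fold change was 0.19 for Dlx1 (SE 0.20, 95% interval -0.28 to 0.65), 0.18 for Dlx2 (interval -0.36 to 0.72) and 0.24 for Dlx5 (-0.34 to 0.82). Dlx6 stood at 0.30 (-0.44 to 1.04), Gad1 at 0.10 (-0.38 to 0.58), Gad2 at 0.33 (-0.27 to 0.93) and Slc32a1 at 0.05 (-0.49 to 0.58). The adjusted p ranged from 0.751 for Gad2 to 0.961 for Slc32a1. A change of 1 log2 unit lies outside the interval for all of them except a rise of Dlx6. KO and WT libraries were fully separated for 0 of 7, against 39.4% of all genes.

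The WT libraries were far more unlike each other than the KO libraries. For Dlx1 the mean was 394 ± 18.6 CPM in KO beside 347 ± 109 in WT (± SD, n = 2 for either). For Gad2 it was 109 ± 2.80 CPM in KO beside 86.5 ± 36.5 in WT. Which WT library was kept set the direction. Without WT6, the fold changes turned to between -0.29 (Slc32a1) and -0.05 (Gad2), and 0 of 7 passed (adjusted p of 0.314 to 0.704), beside 0.0% of all genes. Without WT8, they stood between 0.48 (Slc32a1) and 0.93 (Dlx6), and edgeR called all 7 higher in KO (adjusted p of 5.54e-06 to 0.0428), against 0.41% of all genes called higher and 0.636% called in either direction. Each of these fits holds 1 WT library, which is assumed to vary as the KO libraries do. Leaving out KO2 turned only Slc32a1, to -0.0071, and leaving out KO4 turned none.

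**Figure D2:**
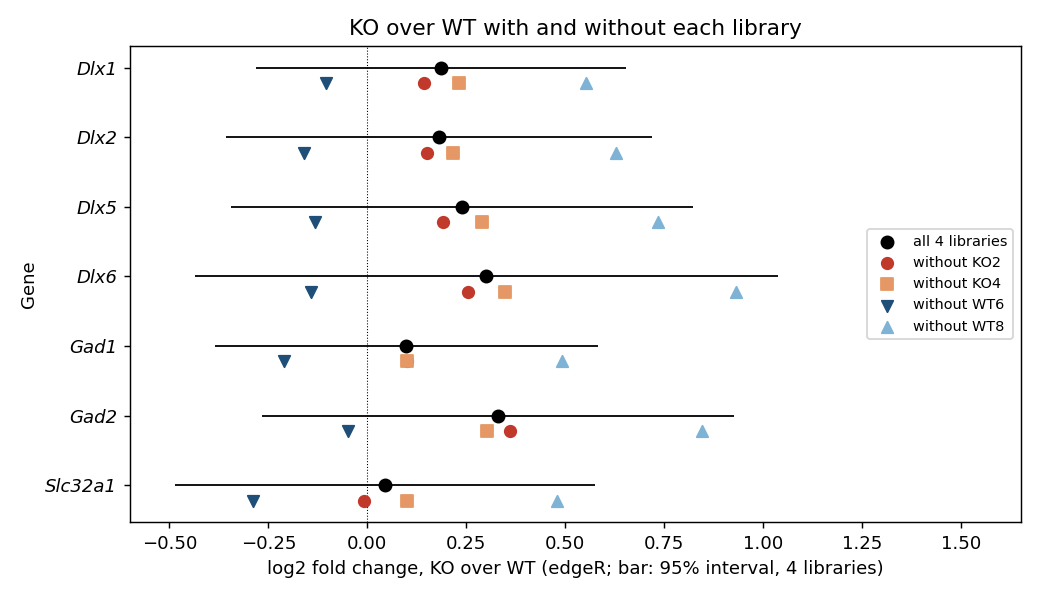
Log2 fold change of KO over WT from edgeR for each gene. Black points with bars are the fit of all 4 libraries with its 95% interval, and coloured symbols are fits without 1 library. All 7 genes lie below 0 without WT6 and above 0.45 without WT8. For Gad1 the symbol without KO2 is hidden behind the one without KO4.

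The authors' deposited tables, each of which sets 1 KO library beside 1 WT library, carry opposite signs for most of these genes. The authors' deposited table for KO2 over WT6 gives log2 fold changes from 0.50 (Gad1) to 0.99 (Dlx6), all 7 with an adjusted p under 0.05 as 17.3% of its genes have. Higher values of that kind are held by 8.58% of its genes. The authors' deposited table for KO4 over WT8 gives values from -0.28 (Slc32a1) to 0.04 (Gad2), with 6 of 7 below 0. Of these, 5 had an adjusted p under 0.05 (Dlx1, Dlx2, Dlx5, Gad1 and Slc32a1), all lower, as 15.2% of the genes in that authors' deposited table do, and 39.0% pass in either direction. None of the 7 carries the mark of significance in either of the authors' deposited tables, which falls on genes with an adjusted p under 0.05 and a log2 fold change of at least 1 in size (1.86% and 5.05% of genes). With 1 library of each genotype per table, these p-values compare libraries and not genotypes.

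Ratios between the genes within a library do not depend on its scaling, and most of them were steadier than the levels. Dlx1 over Dlx2 was 2.19 in WT6 and 2.00 in WT8, with 2.10 in KO2 and 2.06 in KO4, although Dlx2 itself differed by 1.72-fold between WT8 and WT6. The exact counting interval of this ratio in WT6, 2.08 to 2.31, holds the value of KO2 but not those of KO4 and WT8. It overlaps the intervals of all the other libraries. Dlx5 over Dlx6 was 4.82 in WT6 and 4.18 in WT8, with 4.22 in KO2 and 4.20 in KO4, and the exact counting interval in WT6, 4.10 to 5.69, holds the values of the other libraries. Slc32a1 over Gad1 was 0.605, 0.562, 0.589 and 0.616 in KO2, KO4, WT6 and WT8. Gad1 over Dlx1, which sets a synthesis gene against its known regulator, was 0.207, 0.220, 0.222 and 0.229 in KO2, KO4, WT6 and WT8.

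The ratio of the GABA synthesis genes to each other varied most. Gad1 over Gad2 was 0.989 in WT6 and 0.866 in WT8, with 0.791 in KO2 and 0.758 in KO4. The WT6 interval, 0.906 to 1.08, lies above the values of the other 3 libraries and overlaps only the interval of WT8, 0.808 to 0.927. Gad2 was thus lower relative to Gad1 in WT6 than in either KO library beyond counting error. Both KO libraries lay below both WT libraries, by a log2 difference of -0.26 (exact two-sided permutation test over libraries, p = 0.333, adjusted p over the 5 ratios = 0.833). That p is the smallest that 2 against 2 libraries allow, so no ratio could pass. Gad1 over Dlx1 was separated between the genotypes in the same way, by a log2 difference of -0.08. As for levels, KO and WT libraries were fully separated for 39.4% of all genes tested.

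**Figure D3:**
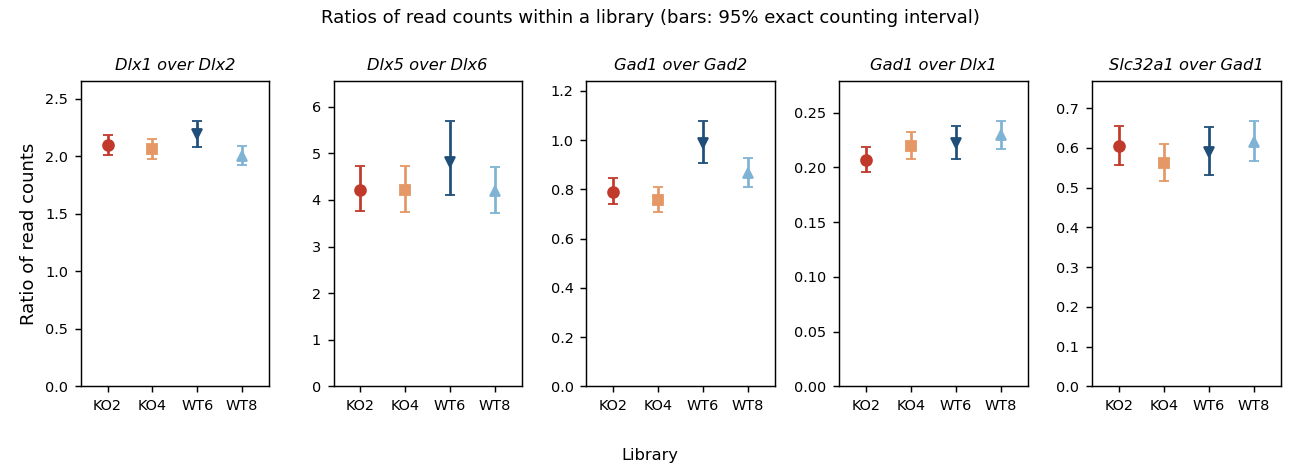
Ratio of read counts of 2 genes within each library, from 0, with 95% exact binomial intervals that cover counting error only. Gad1 over Gad2 is highest in WT6 at 0.989, while Slc32a1 over Gad1 stays between 0.562 and 0.616.

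Per kb of annotated exon, Dlx1 and Dlx2 were the most abundant of the 7. Dlx1 had 68.7 ± 12.9 CPM per kb over the 4 libraries (mean ± SD) and Dlx5 34.2 ± 8.18, while Dlx2 had 62.5 with a range of 43.1 to 74.1. Slc32a1 followed with 17.3 ± 3.64, Gad2 with 16.6 ± 4.21, Gad1 with 10.6 ± 2.03 and Dlx6 with 7.60 ± 2.18 CPM per kb. The ranges of Dlx2 and Dlx5, and those of Dlx5 and Slc32a1, did not overlap, while those of the other neighbours in this order did. Within single libraries each neighbouring pair nevertheless held its order in 4 of 4, save Slc32a1 over Gad2, which held in 3 of 4 and was turned in KO4. Exon length is that of all annotated exons of a gene merged, including retained introns.

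Genes upstream of the Dlx genes in the ventral telencephalon were lowest in WT6 as well. Of 8 listed progenitor factors, 8 were lowest in WT6, with a median distance of -0.84 on the log2 scale, and 6 were highest in WT8. Gsx2, which specifies the lateral ganglionic eminence, had 16.3, 15.0, 8.66 and 15.0 CPM in KO2, KO4, WT6 and WT8. The oligodendrocyte lineage gene Olig1 had 8.37 CPM in WT6 and 10.3 to 12.3 elsewhere. Nkx2-1, a factor of the medial ganglionic eminence, stood at 16.9 CPM in WT6, 118 in WT8, 97.5 in KO2 and 71.3 in KO4. Its distance of -2.46 was larger than that of any of the 7 Dlx and GABA genes. The same was true of Gsx1 at -2.38, Lhx8 at -1.93 and Isl1 at -1.40, but not of Lhx6 at -0.48. Gsx1, Lhx8, Isl1 and Lhx6 were picked out after their values were seen. The labels give the tissue only as brain, and the brain region behind these levels was not tested.

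Factors of GABAergic forebrain neurons beyond the Dlx family were mixed. WT6 was the lowest library for 15 of 22 of them, against 20.7% of all genes tested, with a median distance of -0.25. Ebf1, a striatal factor, stood at 21.2 CPM in WT6, 31.4 in WT8, 34.8 in KO2 and 40.9 in KO4, and Zfp503 stood at 31.4 CPM in WT6, 38.8 in WT8, 39.9 in KO2 and 47.9 in KO4. The most abundant members, Meis2 and Bcl11b, which are also active in the cortex, lay at 0.08 and 0.03 and so differed little in WT6.

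As groups, genes that handle GABA after its release lay closer in WT6 to the other libraries than the 7 genes did. In the list of uptake and breakdown, WT6 was lowest for 2 of 7 measured genes, against 20.7% of all genes tested. The median distance there was 0.00. Abat, the GABA transaminase, stood at 34.1 CPM in WT6, 50.1 in WT8, 53.4 in KO2 and 54.9 in KO4. Slc38a1 and Glul, which supply and make glutamine, lay at 0.10 and 0.00. Among 15 receptor and anchoring genes, WT6 was lowest for 6, again against 20.7% of all genes, with a median distance of -0.13. For 10 of the 15, WT6 lay below the mean of the other libraries. The receptor subunit gene Gabra2 had 32.5 CPM in both KO libraries, 27.1 in WT6 and 24.7 in WT8, and Gabra3 had 16.7 in WT6 and 15.2 to 19.2 elsewhere. Gabbr1, a GABA-B receptor gene, was highest in WT6 at 267 CPM, against 219 to 254 CPM elsewhere.

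In the edgeR test of genotype, 0 genes of the 5 lists of antisense neighbours, GABA uptake, receptors, ventral progenitors and GABAergic factors passed in either direction, out of 55 measured. In the same order of lists, 3 of 3, 5 of 7, 15 of 15, 7 of 8 and 22 of 22 had a fold above 0. Among all genes tested that share was 48.9%. The median log2 fold changes of the 5 lists were 0.26, 0.04, 0.14, 0.15 and 0.16, beside -0.01 for all genes tested. Single libraries set several of these medians. That of the progenitor factors turned to -0.31 without WT6 and stood at 0.81 without WT8, that of the antisense genes was 0.04 and 0.67, and that of the GABAergic factors 0.08 and 0.27. The receptor median was 0.14 and 0.18, and 0.20 without KO2, and that of uptake and breakdown moved between 0.00 without WT8 and 0.11 without KO4. Those with the smallest p were Gabra2 at 0.33 (unadjusted p = 0.0219) and Ebf1 at 0.53 (0.0296), each with an adjusted p of 0.743. Without WT8, which leaves 1 WT library, edgeR called genes in each of these lists except that of the receptors. Genes of the dorsal list described next were called there too.

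Genes of the dorsal telencephalon, the pallium, stood higher in WT6, the library where the Dlx genes were lowest. All 13 listed dorsal and glutamatergic genes lay above the mean of the other 3 libraries in WT6, by 0.09 to 0.54 on the log2 scale, where 50.7% of all genes lay above. WT6 was the highest library for 9 of 13, against 23.0% of all genes, and their summed level was 2611 and 2770 CPM in KO, 3455 in WT6 and 2516 in WT8. Neurod6, a gene of cortical excitatory neurons, stood at 839 CPM in WT6, 530 in WT8, 597 in KO2 and 642 in KO4, and Neurod2 stood at 705 CPM in WT6 and between 452 and 529 elsewhere. Emx1 was different, at 145.5 and 137 CPM in KO against 194 and 197 CPM in WT, and Emx2 had 41.5 and 40.3 against 48.2 and 45.6. None of the 13 passed the edgeR test between genotypes, and Emx1 had an unadjusted p of 0.0009015 and an adjusted p of 0.743. Without WT8, WT6 is the only WT library of the fit, and this list stood high in it. There the log2 fold change was -0.45 for Emx1, -0.23 for Emx2, -0.48 for Neurod2 and -0.43 for Neurod6. Leaving out WT6 instead gave -0.48 for Emx1 and -0.16 for Emx2, but 0.16 for Neurod2 and 0.22 for Neurod6. The median of the list was -0.10, and it stood at 0.11 without WT6 and -0.25 without WT8. The part of dorsal tissue in the level of the Dlx genes was not tested.

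**Figure D4:**
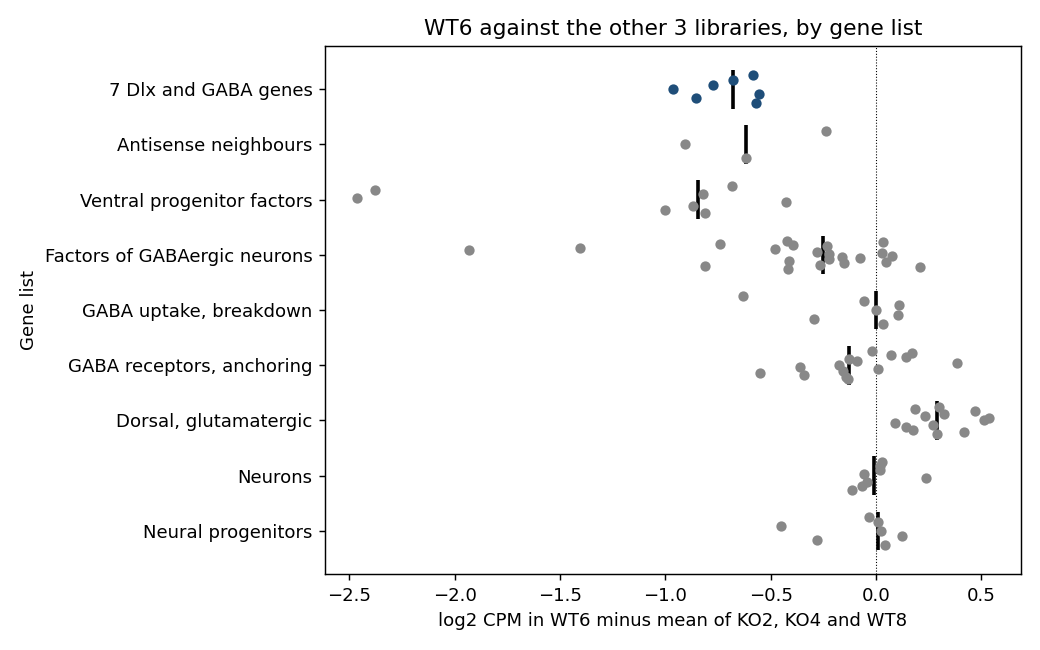
Log2 CPM in WT6 minus the mean of KO2, KO4 and WT8 for each measured gene (points), by list, with the list's median (black bar). The 7 Dlx and GABA genes lie between -0.97 and -0.56 and the dorsal genes between 0.09 and 0.54, while neurons and neural progenitors have medians of -0.01 and 0.01.

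Other cells that could hold Dlx or Gad transcript were followed by lists of their markers. Among general markers, WT6 was lowest for 0 of 8 neuronal genes, whose summed level was 5837 CPM in WT6 and 5855 to 6362 elsewhere, and for 2 of 7 progenitor genes, which summed to 2083 CPM in WT6 and 1938 to 2266 elsewhere. Dlx5 and Dlx6 are also active in facial mesenchyme, whose listed genes summed to 13.3 and 15.4 CPM in KO and 13.7 and 14.5 CPM in WT, and Alx1, Msx2 and Hand2 had no value in both tables. Of 6 surface epithelium genes, 3 were in both tables, summing to 0.873 and 1.58 CPM in KO and 0.988 and 2.50 CPM in WT. Factors of GABAergic neurons outside the telencephalon summed to 22.5 CPM in WT6, 32.6 in WT8, 28.1 in KO2 and 24.9 in KO4, the same lowest and highest library as for the Dlx genes, with Gata3, Pax5, Pax8 and Ptf1a without a value in both tables. WT6 was the lowest library for 2 of the 5 tested and below the mean of the other 3 for 4, with a median distance of -0.23, and the part of these neurons in the result was not tested. The most abundant, Lhx5, had 12.4 CPM in WT6 against 12.9 to 19.4 elsewhere and Helt 3.43 against 5.26 to 5.73. Erythroid genes summed to 784 CPM in WT6, 905 and 1002 CPM in KO and 1477 CPM in WT8, which is the same order of lowest and highest library as for the Dlx genes. WT6 was lowest for 4 of the 8 and WT8 highest for 6, and the part of blood in the result was not tested.

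Over the 4 libraries, 8 genes came closest to the mean pattern of the 7, as measured by the root mean square difference of centred log2 CPM among 11370 other genes with a mean of at least 5 CPM. Among them were Crabp1 (0.01), Tcf7l2 (0.04), Gm14204 (0.04), Adarb2 (0.05), Rxrg (0.06), Fgf14 (0.06) and Dll3 (0.06). Crabp1, which binds retinoic acid, stood at 18.0 CPM in WT6, 31.0 in WT8, 28.8 in KO2 and 27.7 in KO4. Adarb2, of the family of RNA-editing enzymes, stood at 9.71 CPM in WT6, 17.4 in WT8 and 16.4 in both KO libraries. The 7 genes themselves differed from their mean by 0.02 (Dlx2) to 0.11 (Dlx6), and 44 of the other genes, or 0.387%, came closer than Dlx6. With a mean of at least 20 CPM required, 4 of these 8 genes were still among the closest 8.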

How the data were processed

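Brain RNA of 4 libraries was sequenced, and the authors deposited 2 tables of whole-number counts per gene, with 1 KO beside 1 WT library in each, per the file headers. The deposited normalized value is a CPM that the authors made by dividing each count by a library total, which the values show. Per the file headers, further columns by the authors give the ratio of KO to WT, the log2 of that fold, and p-value columns raw and adjusted. No source used here names their test. Tools named in the submitters' processing notes are HTSeq 0.6.0, TopHat2 2.0.12 and Bowtie2 2.2.3, with the build mm9, and their roles are not stated there. Positions in the tables were those of GENCODE M21 on GRCm38 for 91.2% of the genes in both tables and for all 7 genes described, so GRCm38 is the build given.

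The tables were joined by gene identifier. The test was edgeR 4.0.16 in R 4.3.3, its quasi-likelihood F-test with genotype as the only term, TMM factors, filterByExpr and Benjamini-Hochberg adjustment over all genes tested at a threshold of 0.05. The SE is the fold change divided by the root of F. Levels are CPM scaled by TMM factors, and distances of WT6 use log2 CPM and a prior count of 2. The fit was tested on simulated counts in which 200 genes were changed by genotype. No simulated library departed from its genotype as WT6 did for the genes described, so that case was not tested. Alternatives were other scalings and filters, DESeq2 1.42.0, limma-voom (limma 3.58.1), a term for the table a library came from, and leaving out each library. Totals of 16470090 to 18136745 reads set the counting error, and exact intervals are at 95%.

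The genes described and the lists were chosen with earlier results of these data known. Of each pathway list the text names the 2 genes with the smallest p and the 2 with the highest mean, of each list of cell markers at most the 2 most abundant, and the 8 genes of most like pattern. Some genes that the rule names are not reported here, though they stay in the counts and medians of their lists. Genes outside this rule are said to be picked after their values were seen.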

Additional observations from a re-analysis of the deposited data

How the results depend on the processing

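Under the 8 alternatives that keep all 4 libraries, all 7 Dlx and GABA genes kept a log2 fold change above 0 and none passed (smallest adjusted p 0.677, for Gad2). Over all genes, 1 was called, against 2 with library totals alone, 2 with the deposited pair as a term, 4 with DESeq2, and 0 to 104 when a library was left out, a range in which 0 to 7 of the 7 genes were called. Leaving out a library gave -0.10 to 0.55 for Dlx1, -0.16 to 0.63 for Dlx2, -0.13 to 0.74 for Dlx5, -0.14 to 0.93 for Dlx6, -0.21 to 0.49 for Gad1, -0.050 to 0.85 for Gad2 and -0.29 to 0.48 for Slc32a1, the low end without WT6 and the high end without WT8. H2afy kept its direction but was not called without WT6 (-2.29, edgeR adjusted p = 0.314). Other genes also turned when a library was left out: Slc38a1 (-0.076 to 0.068), Glul (-0.025 to 0.033), Gabbr1 (-0.11 to 0.17), Olig1 (-0.0065 to 0.44), Nkx2-1 (-0.48 to 2.33), Neurod6 (-0.43 to 0.22) and Neurod2 (-0.48 to 0.16). Near 0, Slc38a1 turned to 0.0015 with upper-quartile factors and 0.028 with library totals, and Glul to -0.0028 with RLE factors, -0.00086 without a filter and -0.0039 with DESeq2. The cause was not tested. The labels give the genotypes no shared replicate numbers, so no block by number was fitted. With the deposited pair of libraries as a term instead, 0 of the 7 genes were called. The deposited pairs also differ in Xist, low in KO2 and WT6 and high in KO4 and WT8, so pair and Xist cannot be told apart. Depth limits Dlx6 most, at 180 reads in WT6.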

Other observations

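The noncoding gene Gm14204 (ENSMUSG00000086496, chromosome 2, 158595472 to 158610723 on GRCm38, minus strand) starts 44 bases from Slc32a1 and runs away from it. It stood at 48.7 CPM in WT6, 82.3 in WT8, 81.3 in KO2 and 78.1 in KO4, so WT6 was at 60.4% of the mean of the other libraries, beside 67.0% for Slc32a1. It was the third closest of all genes compared to the mean pattern of the Dlx and GABA genes, a search that did not use position.

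Other genes near the 7 did not share the pattern as a group. Of 37 tested genes whose start lies within 500 kb of that of Dlx2, Dlx5, Gad1, Gad2 or Slc32a1, 11 had WT6 as the lowest library, where 20.7% of all genes tested do, and the median distance of WT6 from the other 3 libraries was -0.04 on the log2 scale. Those 11 include Dlx1as, Dlx6os1, Dlx6os2 and Gm14204. Around Dlx5, the coding genes Sem1 and Sdhaf3 lay at -0.14 and 0.03, and around Dlx2, Metap1d lay at -0.09 and Itga6 at 0.14. More distant were Tgm2 at -1.01, Gm13340 at -0.66 and Snhg11 at -0.35, and on the other side Apbb1ip at 0.53 and Ppp1r16b at 0.38. All of these genes were picked out after their values were seen. None of the 37 passed the edgeR test between genotypes.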
